A study of Rattus norvegicus with 84 samples.

Results

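Genes of the postsynaptic density and its calcium/calmodulin signalling were followed in the RNA of extracellular vesicles (EVs) from rat brain and plasma. They were chosen by name, as the rows for Nrgn, Camk2n1, Camk2a, Camk2b, Dlg4, Shank1, Shank3, Ppp3ca, and Homer1 in the mRNA count table, and are 9 of 18782 annotated genes. In brain-derived EVs all 9 lay below healthy rats 4 days after stroke in estimate, 1 of them, Ppp3ca, beyond the test's threshold (0.861% of all genes passed it), a call lost when any 1 of the 6 libraries compared was left out. On the authors' FPKM scale 5 of the 9 estimates were above 0. By 31 days, over treated and untreated stroke rats together, the neurogranin, calcineurin, and CaMKII inhibitor transcripts were above their day 4 level, while Shank3, a scaffold, was below it. This comparison was added after the values had been seen, and 7.3% of all genes were called in it. The Shank3 call was lost in most of the 12 fits that left out 1 library, and its sign was opposite on the FPKM scale. In plasma EVs neurogranin was the most abundant member.

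The study treated adult male wild-type Sprague-Dawley rats aged 8 to 12 weeks with human neural stem cells (hNSCs) after a 90 min occlusion of the middle cerebral artery. Vesicles were taken from the injured hemisphere and from plasma (one label calls the blood sample serum) at 4, 10, and 31 days, and the 84 libraries hold 42 mRNA and 42 miRNA libraries. The healthy group had no stroke. The control groups had stroke and a saline injection into the carotid artery 3 days later, and the hNSCs groups had stroke and 200000 hNSCs by the same route. Each of the 7 groups (healthy, and control and hNSCs at each of the 3 days) held 3 rats, 21 in all, and each rat gave 1 brain and 1 plasma library. The hNSCs are human cells placed in a rat host, and the vesicles came from a whole hemisphere, so that infarct and surviving tissue were not separated. In such samples fewer vesicles or cells of a type and less RNA in each cannot be told apart.

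The postsynaptic density is the protein layer under the membrane of excitatory synapses that holds glutamate receptors in place. Calcium entering through these receptors binds calmodulin, which activates the kinase CaMKII and the phosphatase calcineurin, and the balance of both sets synaptic strength. CaMKII subunits and neurogranin are among the most abundant neuronal proteins of the forebrain, and several of their mRNAs are carried into dendrites.

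The members fall into 3 roles. Camk2a and Camk2b encode the main neuronal CaMKII subunits, and Camk2n1 encodes an inhibitor protein of the kinase. Nrgn encodes neurogranin, which holds calmodulin at low calcium, and Ppp3ca encodes a catalytic subunit of calcineurin. Dlg4 encodes PSD-95, Shank1 and Shank3 encode scaffolds that lie deeper in the density, and Homer1 encodes an adaptor that links Shank proteins to metabotropic glutamate receptors.

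RefSeq promoter sequences (build GRCr8, 250 bases before the gene start) matched 7 of the 9 members, all but Camk2n1 and Shank1. The GC box GGGCGG, searched on both strands (reverse complement CCGCCC), was in 3 of these 7 promoters and in 30.5% of 33469 rat promoters, and the core TGACG of the cAMP response element (reverse complement CGTCA) was in 1 of 7, Camk2a, against 18.2%. One window of each GC box gene is printed because Ppp3ca and Nrgn are among the members called in brain and Camk2b is a kinase subunit that did not pass the test. Capitals mark the match, which is a description of letters and not a site of binding.
Ppp3ca, chr2:227839486-227839515, plus strand, 109 bases before the start: cctccccatcccCCGCCCcgtccccaagaa
Nrgn, chr8:45452626-45452655, minus strand, 226 bases before the start: ttttctatctatGGGCGGtagggcgtgctg
Camk2b, chr14:85147974-85148003, minus strand, 47 bases before the start: ccagcccggcccCCGCCCggcgccgcgagc

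Brain libraries held 569136 to 15587216 counts on annotated genes (median 3746015), which was 3.18% to 51.9% of all their counts, and plasma libraries held 6357675 to 31028559. The annotated share in brain was 7.11% to 20.9% in healthy rats and 29.9% to 51.9% at 31 days. Levels are therefore given as CPM, counts scaled to the same total of annotated counts in each library, with TMM factors that correct for the make-up of a library. A gene was called where the Benjamini-Hochberg adjusted p of edgeR's quasi-likelihood test was below 0.05 and the change exceeded 1.5-fold, over 14515 genes in brain and 14720 in plasma. Replicates are separate rats.

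Brain-derived EVs carried all 9 members in all 21 libraries. By FPKM, the authors' value scaled for transcript length and library depth, the median level ran from 23.5 for Camk2n1 through 15.5 for Camk2a, 13.4 for Nrgn, 9.93 for Shank1, 5.86 for Dlg4, 5.47 for Camk2b, 5.05 for Ppp3ca, and 3.35 for Shank3 to 1.10 for Homer1. Camk2n1, the inhibitor, ranked 22 of 18782 genes by median FPKM and exceeded Camk2a, which ranked 45, in 19 of 21 libraries. Camk2a had the higher median but lay above Nrgn in 6 of 21 libraries, so that their order was not settled. Nrgn was above Shank1 in 21 and Shank1 above Dlg4 in 20 libraries, while Dlg4 was above Camk2b in 9 and Camk2b above Ppp3ca in 8.

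The calmodulin and calcineurin genes showed clear gaps between healthy and day 4 brains. Nrgn was at 1165, 1132, and 717 CPM in the healthy brains and at 285, 409, and 551 CPM in the control brains at 4 days. At 31 days the control brains held 798, 740.0, and 1117 CPM of Nrgn. The day 4 values lay below all healthy values, as in 10.4% of all genes, and the day 31 values overlapped the healthy ones.

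Ppp3ca, the calcineurin subunit, was at 1059.8, 1178, and 1043 CPM in the healthy brains and at 425, 348, and 523 CPM in the control brains at 4 days. The control brains at 10 days held 949, 385, and 388 CPM of Ppp3ca. The control brains at 31 days held 834, 840.1, and 994 CPM of Ppp3ca. All of these lay below the lowest healthy brain, as in 221 of 14515 genes. At 10 days 1 rat was close to the healthy range while the other 2 were near the day 4 level.

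Among the kinase genes, Camk2n1 was at 482, 609, and 386 CPM in the healthy brains and at 202, 171, and 188 CPM in the control brains at 4 days. Camk2a was at 1094, 989, and 913 CPM in the healthy brains and at 355, 611, and 546 CPM in the control brains at 4 days. Camk2b was at 684, 946, and 775 CPM in the healthy brains and at 247, 388, and 597 CPM in the control brains at 4 days. In all 3 genes every control brain at 4 days was below every healthy brain, as in 10.4% of all genes.

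The scaffold genes had smaller differences at 4 days. Dlg4, encoding PSD-95, averaged 722 ± 47.4 CPM in healthy brains (SD, n = 3) and 500 ± 164 CPM in control brains at 4 days (SD, n = 3). Shank1, the most counted member, averaged 2138 ± 89.6 CPM (SD, n = 3) in healthy brains and 1570 ± 220 CPM (SD, n = 3) in control brains at 4 days. Homer1 averaged 186 ± 42.4 CPM (SD, n = 3) and 119 ± 3.78 CPM (SD, n = 3). The control range lay below the healthy range for these 3 genes, as in 10.4% of all genes.

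Shank3 followed another course. It was at 885, 598, and 672 CPM in the healthy brains and at 627, 713, and 565 CPM in the control brains at 4 days. At 31 days it was at 279, 429, and 382 CPM in the control brains and at 367, 414, and 382 CPM in the hNSCs brains. The day 4 values overlapped the healthy ones, and all 6 day 31 values lay below every healthy value and every day 4 value. Of 14515 genes, 634 lay below healthy in this way and 525 below day 4, each over both arms.

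**Figure D1:**
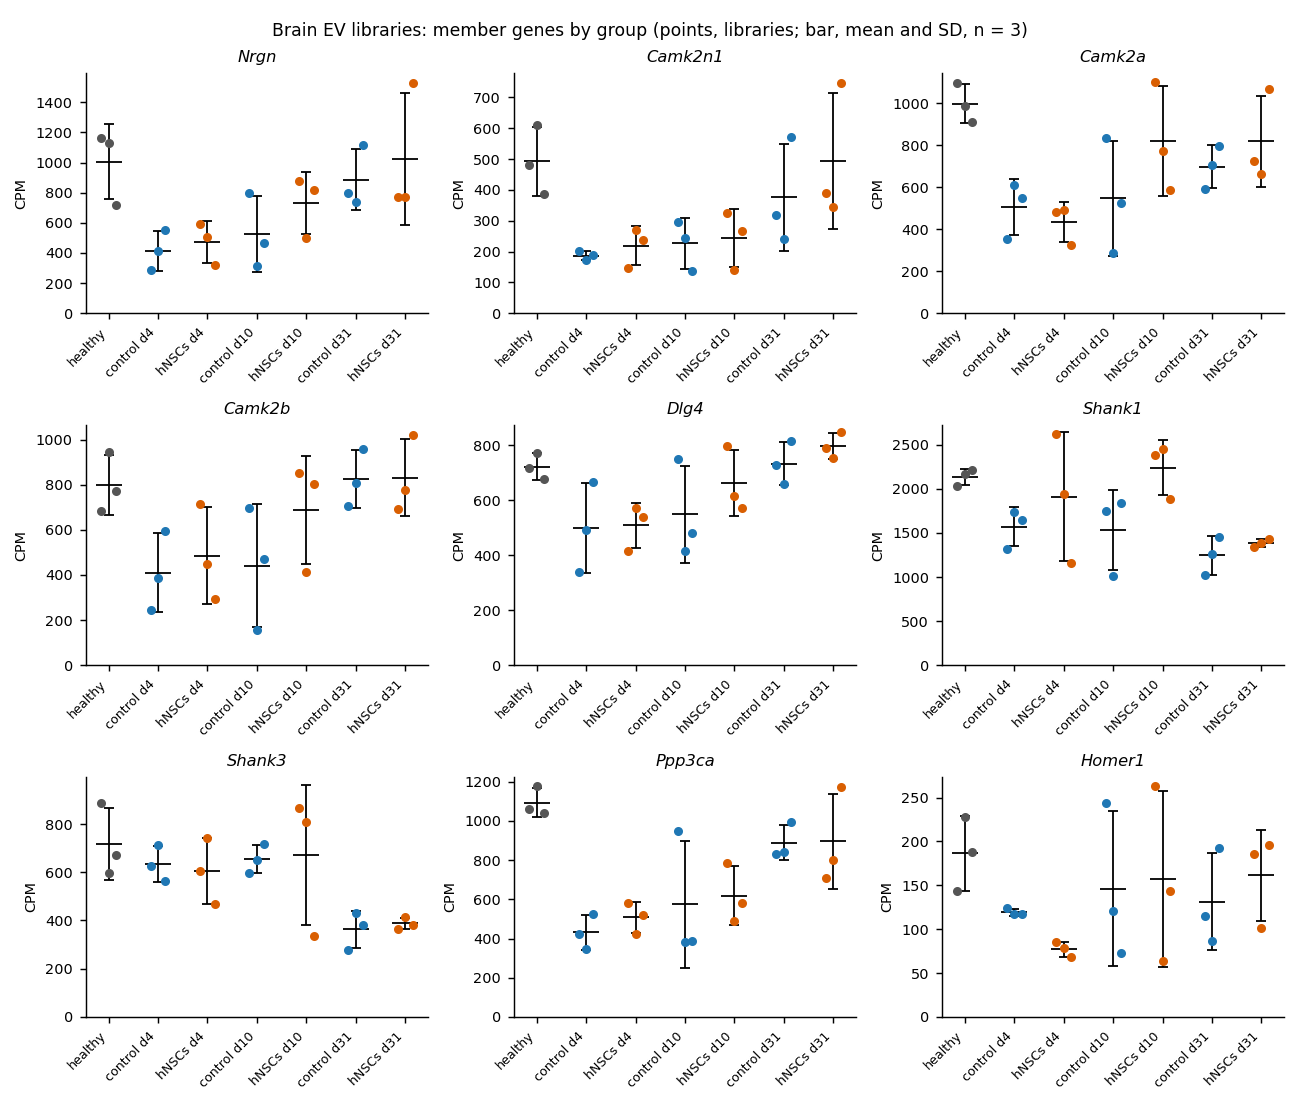
Level of the 9 members in brain-derived EVs (y axis, CPM) in the 7 groups (x axis), with 1 point per rat and bars for mean and SD of 3 rats. Nrgn, Camk2n1, Camk2a, Camk2b, and Ppp3ca are low in the control group at 4 days, while Shank3 has its lowest means at 31 days in both arms.

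Against healthy brains, control brains at 4 days had estimates below 0 on the log2 scale for 9 of 9 members, against 47.0% of all genes tested. Ppp3ca fell by 1.34 on the log2 scale (SE 0.31, adjusted p = 0.0334, edgeR's quasi-likelihood test with Benjamini-Hochberg adjustment). It was the 1 member called lower of 9, with 0.131% of all genes called lower and 0.861% called in either direction. The ranges of 8 members lay wholly below the healthy range, all but Shank3, against 10.4% of all genes. The log2 differences of the members that were not called were −1.40 for Camk2n1 (adjusted p = 0.0801), −1.27 for Nrgn (adjusted p = 0.0918), −0.99 for Camk2a (adjusted p = 0.14), −0.97 for Camk2b, −0.64 for Homer1, −0.53 for Dlg4, −0.45 for Shank1, and −0.18 for Shank3 (adjusted p from 0.263 to 0.937 for the last 5).

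The Ppp3ca call was close to the threshold. Leaving out each of the 6 libraries in turn gave adjusted p from 0.052 to 0.192, all above it, with log2 differences from −1.51 to −1.21. Brain libraries under 2000000 annotated counts, left out as a choice made after the data were seen, took it to 0.0695. On the scale of FPKM the order of the members was similar but the sign was not: with limma on log2(FPKM + 1) the day 4 differences ran from −0.49 for Ppp3ca, −0.33 for Camk2n1, and −0.25 for Nrgn, through −0.04 for Camk2b, to 0.01 for Camk2a, 0.10 for Homer1, 0.32 for Dlg4, 0.51 for Shank1, and 0.65 for Shank3, none of them called (1.75% of all genes called), where the median of all genes was 0.19.

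At 10 days none of the 9 members was called in control brains (0.572% of all genes called in either direction), 5 members had an unadjusted p below 0.05, all lower, against 12.7% of all genes, and DESeq2 called 1, Ppp3ca, among 4.22% of all genes. All 9 estimates were again below 0, from −1.12 for Camk2n1, −0.94 for Nrgn, −0.93 for Ppp3ca, −0.87 for Camk2a, and −0.86 for Camk2b to −0.13 for Shank3. The ranges of 4 members (Camk2n1, Camk2a, Ppp3ca, and Shank1) lay below the healthy range, against 7.03% of all genes. Leaving out each of the 6 libraries in turn called 0 members in 5 fits. Without control replicate 1, which held the highest value of its group in 7 members, so that its removal itself lowered their group mean, 2.46% of all genes were called, and Ppp3ca fell by 1.49 (adjusted p = 0.00505) and Camk2a by 1.30 (adjusted p = 0.0372) on the log2 scale.

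At 31 days none of the members was called in control brains by edgeR (0.00689% of all genes called). The 2 members with an unadjusted p below 0.05, against 7.14% of all genes, were both scaffolds, Shank3 with a log2 difference of −0.98 (SE 0.29, adjusted p = 0.448) and Shank1 with −0.78 (adjusted p = 0.483), and DESeq2 called Shank3 (adjusted p = 0.0321), among 1.21% of all genes. The log2 differences of the other members were −0.52 for Camk2a, −0.51 for Homer1, −0.39 for Camk2n1, −0.30 for Ppp3ca, −0.18 for Nrgn, 0.04 for Camk2b, and 0.02 for Dlg4, where the median of all genes was 0.24. The ranges of 4 members (Shank1, Shank3, Camk2a, and Ppp3ca) were below the healthy range, against 6.39% of all genes. With limma on log2(FPKM + 1) all 9 members were called higher at 31 days, from 0.86 for Shank3 to 1.89 for Camk2b, on a scale where the median gene was 0.69 higher and 8272 of 8273 called genes, 57% of all genes tested, were higher. The annotated share of counts was higher at 31 days, as given above, and its part in the FPKM result was not tested. Averaged over the 3 days, control brains had no called member against healthy brains by edgeR (0.186% of all genes called, 5 members and 12.3% of all genes with an unadjusted p below 0.05, 2 members and 4.79% of all genes called by DESeq2).

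The 2 arms of a day were then averaged, a comparison added after the values had been seen. With 6 stroke rats a day, 4 members were called lower at 4 days, against 2.14% of all genes called lower and 4.54% called in either direction. Ppp3ca fell by 1.22 (adjusted p = 0.00886), Camk2n1 by 1.28 (adjusted p = 0.0251), Nrgn by 1.18 (adjusted p = 0.0278), and Camk2a by 1.09 (adjusted p = 0.0247) on the log2 scale by edgeR's quasi-likelihood test with Benjamini-Hochberg adjustment. The other 5 members were not called, with log2 differences of −0.96 for Homer1, −0.85 for Camk2b, −0.52 for Dlg4, −0.30 for Shank1, and −0.21 for Shank3. Ppp3ca remained called without each of the 9 libraries in turn, Camk2n1 in 6 of these 9 fits and Nrgn and Camk2a in 4 each, and without any 1 of the 3 healthy libraries Ppp3ca was the 1 member called. On log2(FPKM + 1) none of the 9 was called (1.02% of all genes).

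Against healthy brains, the averaged arms gave no call among the members at 10 days (0.351% of all genes called, 4 members and 13% of all genes with an unadjusted p below 0.05, 1 member and 4.52% of all genes called by DESeq2) or at 31 days (0.0827% called, 2 members and 8.73% of all genes with an unadjusted p below 0.05, 2 members and 2.18% of all genes called by DESeq2). At 31 days Shank3 had a log2 difference of −0.94 (adjusted p = 0.144) and Shank1 of −0.70 (adjusted p = 0.295). They were the 2 members whose 6 stroke libraries all lay below the healthy range, against 4.37% of all genes, and the 2 that DESeq2 called (adjusted p = 0.0073 and 0.0364).

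From 4 to 31 days, over both arms, the members split. Nrgn rose by 1.11 (adjusted p = 0.0127), Camk2n1 by 1.09 (adjusted p = 0.0193), Ppp3ca by 0.93 (adjusted p = 0.0126), and Dlg4 by 0.60 (adjusted p = 0.0444) on the log2 scale, 4 of 9 against 4.62% of all genes called higher. Shank3 fell by 0.73 (adjusted p = 0.0315), 1 of 9 against 2.68% called lower and 7.3% called in either direction. The differences of Camk2b at 0.89 (adjusted p = 0.0645), Camk2a at 0.69 (adjusted p = 0.0655), Homer1 at 0.60 (adjusted p = 0.298), and Shank1 at −0.40 (adjusted p = 0.209) were not called. All genes had a median difference of 0.26, so that Shank3 and Shank1 lay 0.99 and 0.66 below that median and Nrgn 0.84 above it.

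The means behind this comparison were 443 ± 125 CPM at 4 days and 954 ± 315 CPM at 31 days for Nrgn, 203 ± 44.9 and 435 ± 189 CPM for Camk2n1, and 470 ± 86.0 and 892 ± 165 CPM for Ppp3ca (SD, n = 6). For Shank3 they were 621 ± 99.8 and 375 ± 52.8 CPM (SD, n = 6). Without each of 12 libraries in turn, Ppp3ca remained called in 12 fits, Nrgn in 11, and Camk2n1 in 9. Without replicate 3 of the control brains at 31 days Ppp3ca was the 1 member called. Shank3 remained called in 3 (without control replicate 3 or hNSCs replicate 3 at 4 days, or control replicate 2 at 31 days, with adjusted p from 0.031 to 0.0918 over all 12) and Dlg4 in 1 (adjusted p from 0.0261 to 0.144). On log2(FPKM + 1) Shank3 (0.59, adjusted p = 0.0572) and Shank1 (1.05) had the opposite sign, and the 8 members other than Shank3 were called higher, where 46.1% of all genes were called.

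**Figure D2:**
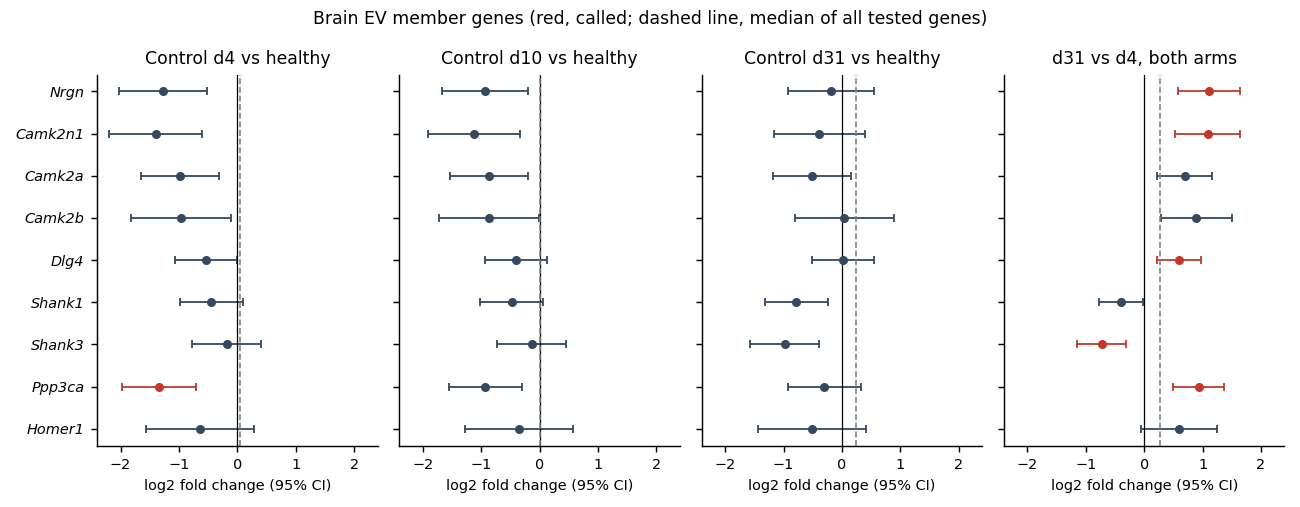
Log2 fold change of each member in brain-derived EVs (x axis, edgeR, with 95% confidence interval) for control brains at 4, 10, and 31 days against healthy brains and for 31 against 4 days over both arms. Red marks called members and the dashed line the median of all genes. On log2(FPKM + 1) the sign of Camk2a, Homer1, Dlg4, Shank1, and Shank3 at 4 days against healthy is reversed. The same holds for 7 members at 31 days against healthy and for Shank1 and Shank3 in the last panel.

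Ratios of members within a library do not depend on how libraries are scaled. The FPKM of Shank3 was 0.43 to 0.545 of that of Dlg4 in the 3 healthy brains, 0.437 to 0.989 in the 6 brains at 4 days, and 0.242 to 0.422 in the 6 brains at 31 days. The Shank3 to Camk2a ratio was 0.127 to 0.17 in healthy brains, 0.217 to 0.37 at 4 days, and 0.075 to 0.131 at 31 days. The Shank1 to Camk2a ratio was 0.385 to 0.516, 0.621 to 1.08, and 0.288 to 0.44 in the same order. Both Shank genes, relative to Camk2a, were above healthy in every brain at 4 days and below every day 4 brain at 31 days. By CPM, Camk2a itself fell more than either Shank gene at 4 days. The Nrgn to Camk2a ratio overlapped, at 0.862 to 1.26 in healthy brains and 0.735 to 1.34 at 4 days. So did the Camk2n1 to Camk2a ratio, at 1.56 to 2.27 and 1.03 to 2.69. The share over other gene pairs was not counted, so these ratios are a description. Relative to Dlg4 the ranges of Shank1 overlapped throughout, at 1.24 to 1.79 in healthy brains, 1.04 to 3.17 at 4 days, and 0.899 to 1.25 at 31 days. At 10 days the Shank3 to Camk2a ratio was 0.12 to 0.475 and the Shank1 to Camk2a ratio 0.439 to 0.721, which overlapped both the healthy and the day 4 ranges.

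Treatment with hNSCs called none of the members in brain at 4, 10, or 31 days, and 0% of all genes passed at each day by edgeR's quasi-likelihood test with Benjamini-Hochberg adjustment. The unadjusted p was below 0.05 for 0, 1, and 0 members in turn, against 7.53%, 13.4%, and 0.0896% of all genes. DESeq2 called 0 members, where it called 220, 636, and 0 of 14515 genes in turn. Log2 differences of hNSCs from control ran from −0.63 for Homer1 (95% interval −1.56 to 0.30) to 0.28 at 4 days, from 0.04 to 0.65 at 10 days, and from 0.01 to 0.40 at 31 days. Homer1 at 4 days had 85.3, 78.5, and 68.2 CPM in hNSCs brains and 124, 118, and 117 CPM in control brains, ranges that did not overlap, as in 6.82% of all genes in that direction. Shank1 at 10 days had 2390.0, 2453, and 1887 CPM in hNSCs brains and 1746, 1009, and 1843 CPM in control brains. Those ranges did not overlap, which held for 1.61% of all genes in that direction, and the log2 difference was 0.55 (adjusted p = 0.364). Tests of whether the hNSCs difference itself changed between days called no member (0% of all genes), nor did the mean over days (0%).

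Ordered by group mean, neighbouring groups overlapped in nearly every case. Of 6 neighbouring pairs per gene, 1 did not overlap for Shank3, where hNSCs brains at 4 days lay over hNSCs brains at 31 days, 1 for Ppp3ca, where control brains at 31 days lay over hNSCs brains at 10 days, and 1 for Homer1, where control lay over hNSCs brains at 4 days. In the other 6 members 0 pairs of neighbours were apart. The order was set from the same means and the share over all genes was not counted, so these counts are a description.

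The wider postsynaptic lists had medians below 0 at 4 days. Of 10 receptor and adhesion genes, all 10 had log2 differences below 0 in control brains, with a median of −1.05, and Gria3, an AMPA receptor subunit, fell by 1.88 (adjusted p = 0.0142). Of 20 other scaffold genes 18 were below 0, with a median of −0.42, and of 18 calmodulin, CaM kinase, and calcineurin genes 14 were below 0, with a median of −0.53, neither with a called gene. The median over the 9 members was −0.97 and over all genes 0.05. In the average over both arms, added after the values had been seen, 2.14% of all genes were called lower and 4.54% in either direction. Called lower were 4 of 10 receptor and adhesion genes, 1 of 18 calmodulin, kinase, and calcineurin genes, and 2 of 20 other scaffold genes. Gria2 fell by 1.71, Gria3 by 1.61, Grin2a by 1.28, and Grin2b by 1.19 (AMPA and NMDA receptor subunits). Camk4, a nuclear CaM kinase, fell by 2.01, the scaffold gene Dlg2 by 1.22, and the exchange factor gene Kalrn by 0.92.

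From 4 to 31 days, over both arms, 3 of 18 calmodulin, kinase, and calcineurin genes rose, among them Calm3, by 1.56, and Ppp3cb, a further calcineurin catalytic subunit, by 1.09, and 0 fell, where 4.62% of all genes were called higher. Of 10 receptor and adhesion genes 3 rose, Gria2 by 1.39, Grin2b by 0.93, and Gria3 by 0.85. Of 20 other scaffolds Dlg2 rose by 0.82 and Dlgap3, a scaffold that binds Shank proteins, fell by 0.72, and 6 of the 20 had differences below 0. Medians were 0.71, 0.64, and 0.11 in turn, beside 0.69 for the members and 0.26 for all genes.

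Markers of cell types moved alongside. Of 10 neuronal genes outside the postsynaptic density, all 10 were below 0 in control brains at 4 days, with a median of −0.70, and their summed level was 6199 to 7936 CPM in healthy brains, 3141 to 5699 CPM at 4 days, and 5261 to 7663 CPM in control brains at 31 days. The 6 medium spiny neuron genes had a median of −2.15 at 4 days and the 4 glutamatergic neuron genes of −0.89. The first list held genes near the floor, with Drd2 and Adora2a at 0 in 8 of 21 brain libraries each and Tac1 in 9. Its summed level had a median of 464 CPM in healthy brains and 218 CPM in control brains at 4 days. The glutamatergic sum had medians of 899 and 496 CPM. Of 9 microglial genes all 9 were above 0 at 4 days, with a median of 2.81, 2 were called higher (C1qb and C1qc, complement subunits), and the summed level was 73.3 to 86.2 CPM in healthy and 537 to 1257 CPM in control brains at 4 days. Of 8 astrocyte genes Gfap was called higher, by 2.25, where 106 of 14515 genes were called higher. From 4 to 31 days over both arms, all 10 neuronal genes outside the postsynaptic density had differences above 0, with a median of 0.65. Of them 2, Eno2 and Snap25, were called higher, and 3 of 9 microglial genes were called lower. Oligodendrocyte genes were mixed, with 4 of 7 above 0 and a median of 0.08. The other 3 were called lower, among them Mbp, encoding myelin basic protein, by 1.88. The hemoglobin genes Hba1 and Hba2 rose by 2.37 and 1.71. Of all genes 4.62% were called higher and 2.68% lower. The part of these in the fall of Ppp3ca and in the other changes of the members was not tested.

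**Figure D3:**
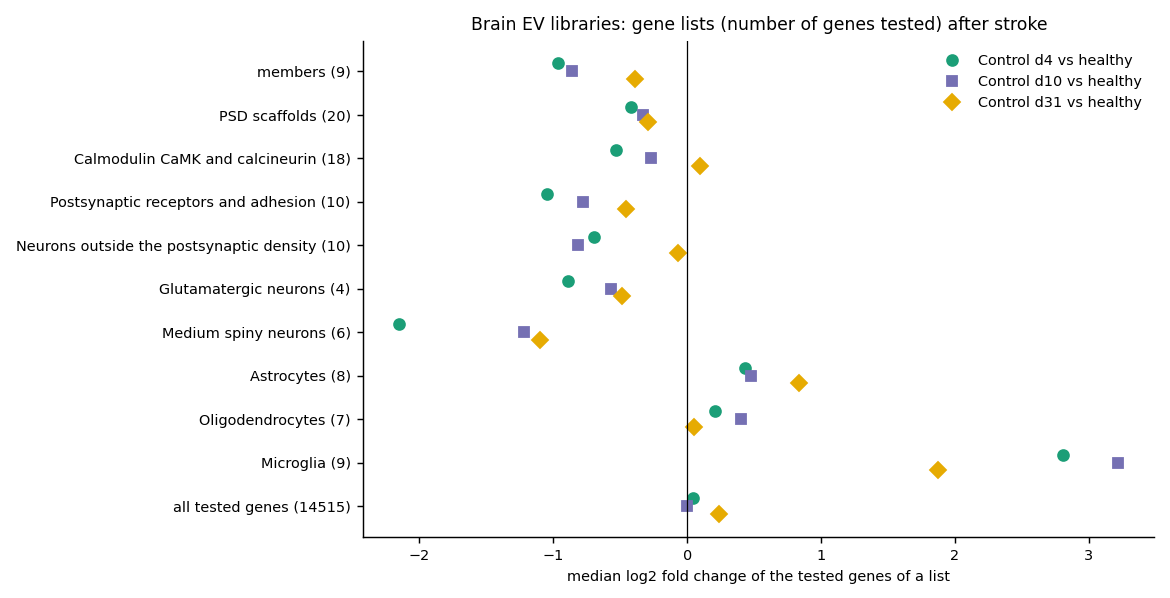
Median log2 fold change against healthy brains (x axis, edgeR) of the members, the wider postsynaptic lists, and the cell type marker lists (y axis), with 1 symbol each for control brains at 4, 10, and 31 days. At 4 days the members (−0.97), receptors (−1.05), and neuronal lists are below 0 and microglial genes (2.81) above it, on a scale that shifts upward with FPKM. Several medium spiny neuron genes had no counts in some libraries.

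Over the 21 brain libraries the members correlated with each other with Pearson r from −0.34 to 0.91 over 36 pairs (median 0.60), where the median over all pairs of tested genes was 0.178. These libraries share groups and depth, so the values are a description. Nrgn and Camk2b had the highest pair. The 2 Shank genes stood apart. Shank1 had a median r of 0.17 with the other 8 members, from −0.14 with Camk2n1 to 0.61 with Shank3. Shank3 had r of −0.31 with Nrgn, −0.34 with Camk2n1, −0.34 with Camk2b, −0.31 with Dlg4, and −0.30 with Ppp3ca.

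The genes most like each member over the 21 libraries, by Pearson r of log2 CPM, differed between members. Nrgn was closest to Syp, encoding synaptophysin of synaptic vesicles (r = 0.932), to Nsg2, and to LOC365985. Camk2a was closest to Rims1 of the presynaptic active zone (r = 0.919), Kif1a, an axonal transport motor (r = 0.917), and Slc8a2, a sodium/calcium exchanger (r = 0.908). Camk2b was closest to LOC365985, Atp2b3, a calcium pump (r = 0.942), and LOC108348096, and Ppp3ca to Srpk2, Syp, and Kcnv1. Camk2n1 was closest to Nudt3, Cplx2, which encodes a complexin, and Slc6a17, and Dlg4 to Tmem130, Nsg2, and Atp6v0a1.

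Shank1 was closest to the adhesion receptor genes Adgrb1 (r = 0.914) and Adgrb2 (r = 0.901) and to Bicdl1. Shank3 was closest to Hip1r (r = 0.889), which links clathrin to actin, Phldb1 (r = 0.867), and Zbtb17 (r = 0.854). Homer1 had the lowest values, with Cd99l2 (r = 0.823), Npas4, an activity-regulated transcription factor (r = 0.775), and Gpr158 (r = 0.763).

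In plasma EVs the order of the members was different. By median FPKM Nrgn came first at 95.4, followed by Camk2n1 at 24.0, Ppp3ca at 5.87, Shank3 at 1.65, Dlg4 at 0.773, Homer1 at 0.309, and Camk2b at 0.0283, and the medians of Camk2a and Shank1 were listed at 0. Nrgn was above Camk2n1 in 21 of 21 libraries. Camk2a and Shank1 did not pass the filter on low counts, which the other 7 members passed. Camk2a had 15 counts in all among 452574002 annotated plasma counts, or 0.0331 CPM (exact binomial 95% interval 0.0185 to 0.0547, counting error only). It was at 0 in 19 of 21 libraries, which allows up to 0.0985 to 0.381 CPM each by the floor of 3 counts.

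Within a rat, plasma Nrgn exceeded brain Nrgn in 10 of 21 rats by CPM and in 18 of 21 by FPKM. The other 8 members were lower in plasma than in brain in all 21 rats by CPM. By FPKM plasma was higher in 11 of 21 rats for Ppp3ca, 8 for Camk2n1, 7 for Homer1, and 4 for Shank3. The FPKM of all annotated genes summed to 2190 to 48951 in brain libraries and 123447 to 334989 in plasma libraries. A higher FPKM in plasma is therefore not particular to the members, and the share over all genes was not counted. Both tissues were normalized separately, and these are levels without a test.

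**Figure D4:**
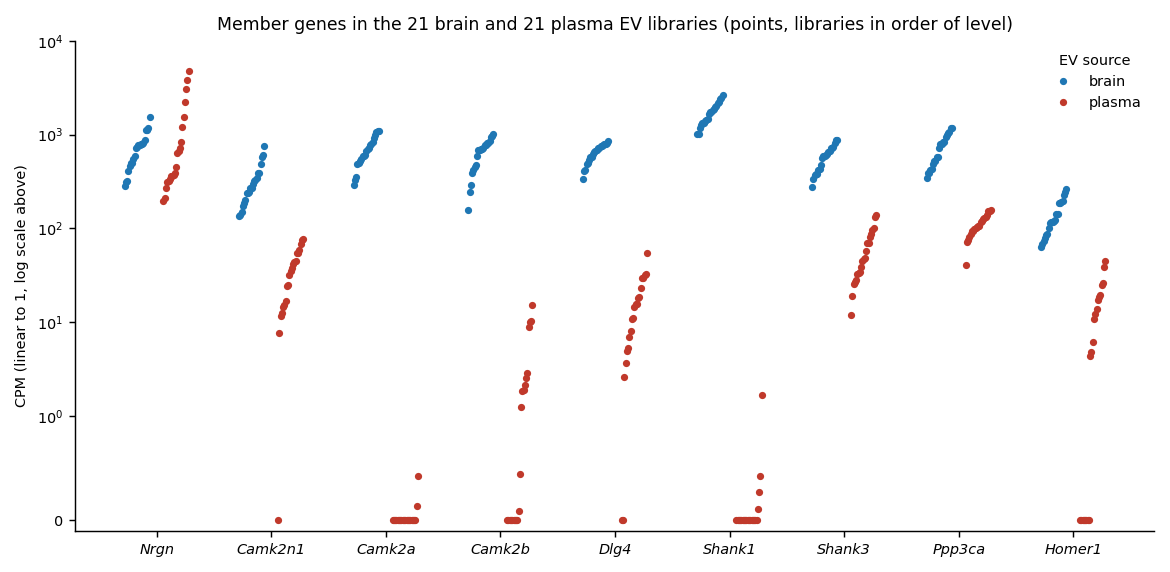
Level of each member (y axis, CPM on a scale that is linear near 0 and logarithmic above) in the 21 brain and 21 plasma libraries, 1 point per library. Nrgn overlaps between tissues, Camk2a and Shank1 are at 0 in 19 and 17 plasma libraries, and the other members are lower in plasma on this scale, which does not hold in every rat by FPKM.

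Plasma Nrgn varied widely within groups. It was at 360, 2209, and 195 CPM in healthy rats, at 452, 310.3, and 1217 CPM in control rats at 4 days, and at 4739, 366, and 1536 CPM in control rats at 10 days. Control rats at 31 days had 272, 373, and 322 CPM. The hNSCs rats had 720.1, 828, and 3859 CPM at 4 days, 662, 336, and 638 CPM at 10 days, and 394, 212, and 3052 CPM at 31 days. The highest rat in 4 of the 7 groups had between 2209 and 4739 CPM, and control rats at 31 days spanned the narrowest range.

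No member was called in plasma in any comparison by edgeR's quasi-likelihood test with Benjamini-Hochberg adjustment. Of all genes, 0.0679% were called in control rats at 4 days and 0% at 10 and 31 days against healthy rats, and 0.00679%, 0%, and 0% in hNSCs against control rats at 4, 10, and 31 days. In these 6 comparisons 0 members had an unadjusted p below 0.05, against 5.86%, 5.6%, 4.75%, 3.94%, 4.06%, and 8.57% of all genes. DESeq2 called 0 members in them, where it called 907, 1214, 659, 873, 1142, and 1668 of 14720 genes in turn. Over both arms 0.224%, 0%, and 0% of all genes were called at 4, 10, and 31 days against healthy rats and 0.802% from 4 to 31 days. The lowest adjusted p of all was for the change of the hNSCs difference in Nrgn from 10 to 31 days, a log2 value of 3.94 (adjusted p = 0.336), which DESeq2 alone called at 3.78 (adjusted p = 0.0316), among 13.7% of all genes.

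Levels of the other plasma members were low. Ppp3ca ranged from 40.3 to 158 CPM and Shank3 from 12.0 to 137 CPM over 21 libraries. Camk2n1 reached 77.9 CPM and was at 0 in 1 library, Dlg4 reached 55.1 CPM and was at 0 in 2, Homer1 reached 45.1 CPM and was at 0 in 8, and Camk2b reached 15.4 CPM and was at 0 in 9. The defining neuronal markers Snap25 and Syt1 were at 0 in 19 plasma libraries each and Tubb3 in 17, and Neurod6 and Tbr1 were at 0 in all 21. The 10 neuronal genes summed to 0.201 to 44.9 CPM, while 5 platelet genes summed to 667 to 20236 CPM and 5 red cell genes to 5415 to 310736 CPM.

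Across the 21 plasma libraries Nrgn was correlated with the platelet genes (Pf4, Ppbp, Itga2b, Gp9, and Gp1bb), a relation examined after the values had been seen. Pearson r of log2 CPM was 0.886 (permutation p = 1e-05, the smallest that 100000 permutations can give, adjusted p = 0.00021 over 21 relations of 7 members with 3 lists) and Spearman rho was 0.848 (permutation test, adjusted p = 0.00042). Within groups, after group means were subtracted, r was 0.924, and without the 2 libraries farthest from the median r was 0.869. Nrgn had r of −0.151 with red cell genes and 0.23 with the 6 neuronal genes that passed the filter in plasma. These 6 genes were near the floor, at 0 in 6 (Thy1) to 16 (Stmn2 and Uchl1) of 21 libraries. A low r with them therefore does not decide whether Nrgn and neuronal genes are related in plasma. Of all genes tested in plasma, Nrgn was closest to Clec1b, a platelet receptor (r = 0.963), Mgrn1 (r = 0.962), and Tsc22d1 (r = 0.957), genes named after their values were seen.

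**Figure D5:**
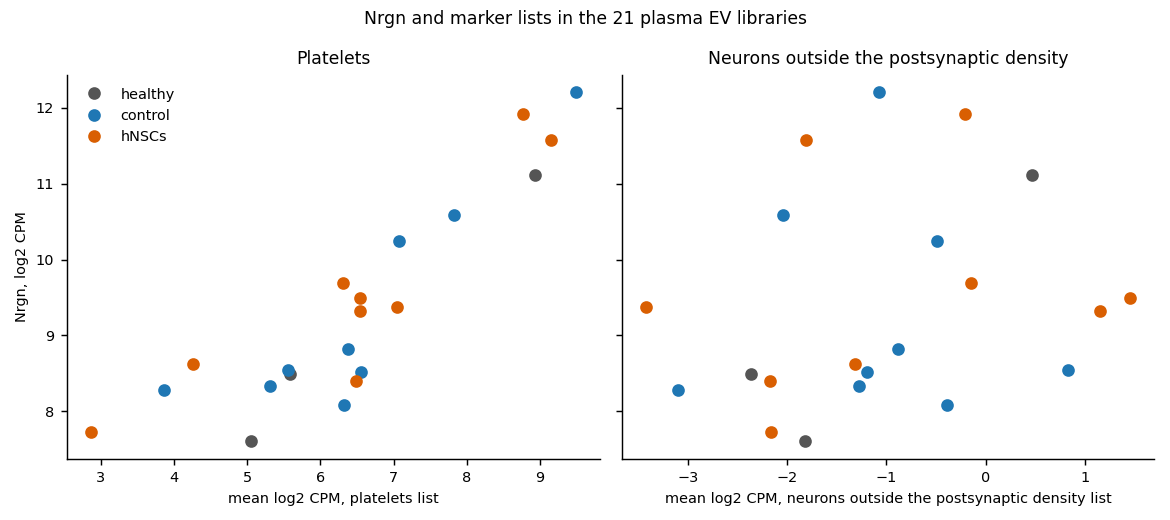
Plasma Nrgn (y axis, log2 CPM) against the mean log2 CPM of 5 platelet genes and of the 6 neuronal genes outside the postsynaptic density that passed the filter in plasma (x axes), 1 point per rat. Pearson r is 0.886 for the platelet genes and 0.23 for the neuronal genes. The neuronal genes were near the floor, at 0 in 6 to 16 of 21 libraries each, so the 2 values are not on equal terms.

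The other 6 plasma members had r from −0.05 to 0.33 with the platelet genes (permutation test, adjusted p from 0.435 to 0.968). Camk2n1 had r of 0.505 with the neuronal list (permutation test, adjusted p = 0.125). Dlg4 had rho of 0.612 (permutation test, adjusted p = 0.0427) but r of 0.442 (adjusted p = 0.227). Shank3 had r of −0.505 with it (permutation test, adjusted p = 0.141) and −0.618 within groups (adjusted p = 0.0312). The members correlated with each other in plasma with r from −0.49 to 0.372 over 21 pairs, with a median of 0.047.

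Brain and plasma levels of the same rat were compared for the 7 members tested in both tissues, over 21 rats and 12885 genes. No member passed the threshold (permutation test, 0% of all genes passed). Shank3 had r of 0.545 (permutation p = 0.0112, adjusted p = 0.999) and 0.412 without the 2 rats farthest from the median brain value, and its Spearman rho was 0.561, but r was 0.355 (permutation p = 0.115) after group means were subtracted and 0.023 on log2(FPKM + 1). The other 6 members had r from −0.311 to 0.138. After group means were subtracted Nrgn had r of 0.576 (permutation p = 0.00662, adjusted p = 0.265), against 0.064 before. The permutations did not allow for the group means removed, so p-values after the subtraction are too small.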

How the data were processed

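RNA of EVs was sequenced from a stranded total RNA kit. The authors aligned reads with Bowtie2 to Rnor_6.0 and deposited gene counts and FPKM values (StringTie) for 42 mRNA libraries. The counting rule and strand setting are not given in the sources used here. The miRNA tables were not used. Counts on 18782 annotated genes were analysed, and the 7855 rows without annotation (29.5%) entered as an alternative. Low counts were removed by filterByExpr, and 7 group means per tissue were fitted with edgeR 4.0.16 (R 4.3.3, TMM) in place of the study's limma, because the deposited table holds counts. Called genes had a Benjamini-Hochberg adjusted p below 0.05 and a change over 1.5-fold. DESeq2 1.42.0 and limma 3.58.1 on log2(FPKM + 1) were alternatives. Correlations used 100000 permutations in SciPy 1.17.1. The fits were tested on simulated data. Members and lists were chosen with earlier results of these data known. Named genes were the 9 members, up to 4 called genes per wider list and comparison, and the 3 genes most correlated with each member in brain. Marker genes and the 3 genes most correlated with plasma Nrgn were named after their values were seen. P-values measure the spread between rats. Counting intervals cover counting error only. One gene of a wider list is not reported here.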

Additional observations from a re-analysis of the deposited data

How the results depend on the processing

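The limits are those of 3 rats a group, of brain libraries with as few as 569136 annotated counts, and of a scale that differs between counts and FPKM. Over the members' alternatives in both tissues, 3841 values kept their direction and their side of the threshold, 16 reversed, 58 lost a call, 30 gained one, and 326 that were never called changed sign. All 16 reversed with limma on log2(FPKM + 1). Control brains at 31 days against healthy brains gave 0.86 for Shank3, 1.20 for Shank1, 1.76 for Ppp3ca, 1.60 for Camk2n1, 1.86 for Nrgn, 1.52 for Camk2a, and 0.89 for Homer1, and all 9 members were called among 8273 of 14515 genes. Both arms at 31 days against healthy brains gave 0.95 for Shank3, 1.33 for Shank1, 1.81 for Ppp3ca, 1.86 for Camk2n1, 1.99 for Nrgn, 1.67 for Camk2a, and 1.07 for Homer1, again with 9 called, among 8582 genes. Both arms at 31 against 4 days gave 0.59 for Shank3 and 1.05 for Shank1, with 8 members called among 6690 genes. The cause was not tested.

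The number of members called in brain changed as follows. In control brains at 4 days 1 was called, against 4 with DESeq2 (846 of all genes, 125 in edgeR), 3 with only the groups compared in the fit (540 of 12545 genes), and 0 with FPKM, with unannotated rows included, or without the 5 libraries under 2000000 annotated counts. DESeq2 called 1 in control brains at 10 days, 1 at 31 days, and 2 over the mean of days, where edgeR called 0. Both arms at 4 days had 4 called, against 0 with FPKM and 2 without the 5 small libraries. Both arms had 0 called at 10 and 31 days, against 1 and 2 with DESeq2. In plasma DESeq2 called 1 member, Nrgn, for the change of the hNSCs difference from 10 to 31 days. Leaving out each library in turn gave 0 to 0 members in control brains at 4 days, 0 to 2 at 10 days, 0 to 2 over the mean of days, 1 to 4 in both arms at 4 days, 0 to 2 in both arms at 10 days, and 1 to 6 for both arms at 31 against 4 days. The lowest count of both arms at 4 days came without any 1 healthy library, and that of 31 against 4 days without control replicate 3 at 31 days.

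Replicate numbers did not pair the rats of different groups (correlation of same-numbered brain libraries −0.123 to 0.298, with 7 of 63 pairs over 0.1). With the replicate number as a block, the brain calls over all genes were 180 against 125 at 4 days, 53 against 83 at 10 days, and 867 against 1059 for both arms at 31 against 4 days. The block took Dlg4 out of the calls for 31 against 4 days (adjusted p = 0.0611, edgeR) and changed no other call of a member. It left 1 member called in control brains at 4 days and 4 for both arms at 31 against 4 days.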
